A study of Mus musculus with 9 samples.

Results

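The genes described here are 31 genes of cholesterol and fatty acid synthesis, taken by symbol from a list, out of 45706 genes in the table. They were followed through 3 stages of mouse satellite cells, the stem cells that sit beside muscle fibres and repair them. The cells came from C57Bl6 mice aged 12 to 20 weeks and were measured by RNA sequencing when freshly isolated from muscle, when proliferating in culture, and as myotubes, the multinucleated muscle cells that myoblasts form by fusion. Proliferating cells were kept for at least 3 days in 20% fetal calf serum with 2.5 ng/ml human FGF-2, and myotubes were made from such cells by 6 days in 2% horse serum. Each stage had 3 libraries from different animals, 9 in all. The medium and its serum changed with the stage, so the effects of stage and medium cannot be told apart.

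Cells make cholesterol from acetyl-CoA through mevalonate, farnesyl pyrophosphate, squalene and lanosterol, and they make fatty acids from the same acetyl-CoA through malonyl-CoA. Both routes are controlled by SREBP proteins, membrane-bound transcription factors encoded by Srebf1 and Srebf2. When membranes are rich in sterol, the INSIG proteins hold SREBP and its escort SCAP in the endoplasmic reticulum. When sterol is low, SREBP travels to the Golgi, is cut, and enters the nucleus, where SREBP-2 acts mostly on sterol genes and SREBP-1c mostly on fatty acid genes. The values below are RNA levels and do not measure cleavage of SREBP, enzyme activity or lipid.

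All values are normalized read counts, called units here, as the authors scaled them between libraries. Libraries summed to 20.1 to 26.2 M units in freshly isolated cells, 17.8 to 18.2 M in proliferating cells and 19.5 to 20.8 M in myotubes. From the step between low values, libraries of these stages held an estimated 12.0 to 19.4, 20.4 to 24.3 and 22.0 to 22.8 M reads in genes. Freshly isolated replicate 1 and, in the genes described here, proliferating replicate 1 stood apart. Freshly isolated replicate 1 had the fewest reads (12.0 M), 1 read was worth 2.18 units in it, and the noncoding gene Gm26917 took 22.2% of its units, where freshly isolated replicates 2 and 3 had 10.6 and 11.2%. The stage labels were checked with marker genes. Of 6 satellite cell markers, the summed level was 40593 to 45404 units in freshly isolated cells, 15439 to 19880 in proliferating cells and 14434 to 14941 in myotubes. Pax7 and Vcam1 gave most of the freshly isolated sum, and they, Calcr and Myf5 were higher there than in either culture. Itga7 and Cdh15 did not follow the sum. Itga7 read 5207 to 7948, 7510 to 10311 and 5979 to 7295 units in the same stages, and Cdh15 3787 to 4543, 1720 to 3948 and 4459 to 4865. Of 6 myotube markers, the sum was 685 to 1929, 9812 to 55507 and 570734 to 688497 units in the same stages, and proliferating replicate 1 held the lowest of the 3 proliferating sums. Of 4 proliferating myoblast markers, the sum was 5175 to 7004, 60141 to 64381 and 19450 to 28641 units in the same stages. The myotube libraries thus still held 7550 to 13203 units of the proliferation gene Mki67, against 22495 to 25457 in proliferating cells. In freshly isolated cells Myod1 gave 4938 to 6876 units of the myoblast sum, where Top2a read 59 to 209 and Ccnb1 0 to 4. Freshly isolated replicate 1 had the highest Mki67 of its stage (471 units, against 66 and 163 in replicates 2 and 3). It also had the highest Myog there (1257 units, against 62 and 218). Summed markers of 5 of 6 other cell types were higher in freshly isolated cells than in the cultures, and those of pericytes or smooth muscle were lower. The sums in freshly isolated cells, proliferating cells and myotubes were 93 to 258, 12 to 17 and 6 to 14 units for 6 adipocyte markers, and 2984 to 4517, 21 to 31 and 17 to 27 units for 6 fibro-adipogenic markers. Dpt made up 2449 to 3554 units of the last list in freshly isolated cells, and Pdgfra of that list was lower there (4 to 9 units) than in proliferating cells (13 to 22) and myotubes (12 to 17). For 5 endothelial markers they were 1913 to 2410, 75 to 108 and 31 to 32 units, for 5 leukocyte markers 810 to 847, 65 to 87 and 34 to 38 units, and for 5 Schwann cell markers 96 to 205, 38 to 50 and 34 to 48 units. Tek alone gave 1815 to 2190 units of the endothelial sum in freshly isolated cells, where Kdr read 18 to 22 units, against 16 to 52 in proliferating cells. For 5 pericyte or smooth muscle markers the sums were 2104 to 3665, 8577 to 19799 and 60607 to 61881 units, of which Acta2 gave 1567 to 3144, 6866 to 18161 and 60374 to 61639. Lep and Plin1 were at 0 in all proliferating libraries, Adipoq in all myotube libraries, Dpt and Lum in all proliferating libraries, and Cxcl14 and Emcn in all libraries of both cultured stages. Some of these were also near 0 in freshly isolated cells, with Adipoq at 0, 0 and 5 units in replicate order. Lep read 15, 0 and 0 units there, Plin1 0, 1 and 2, Lum 0, 31 and 44, and Emcn 0, 11 and 1. Cidec gave 34 to 139 units of the adipocyte sum there, Fabp4 28 to 63 and Cfd 13 to 41. Cd68 gave 549 to 629 units of the leukocyte sum there and Cd79a 150 to 165, while Ptprc read 0, 0 and 14. In bulk samples such as these, fewer cells of a type and less RNA per cell cannot be told apart. The part of these other cells in the results below was not tested.

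Most of the 31 genes were higher in proliferating cells than in freshly isolated ones, and the sterol and fatty acid branches differed in the myotubes. Proliferating cells, set against freshly isolated cells, had 20 of the 31 genes higher and 5 lower, with 6 not called, by a limma fit of 17291 genes with a Benjamini-Hochberg threshold of 0.05. Of all tested genes, 37.6% were called higher and 35.7% lower in that comparison. The median log2 change was 0.78 over the 31 genes and 0.07 over all tested genes. Myotubes, set against proliferating cells, had 5 of the 31 higher and 11 lower, against 28.6% and 25.5% of all tested genes. There the median was -0.32 over the 31 genes and 0.04 over all. When the same comparison was fitted on these 6 libraries alone, 10 were called higher and 14 lower, and without freshly isolated replicate 1, 8 higher and 14 lower. Myotubes, set against freshly isolated cells, had 15 higher and 10 lower, against 40.2% and 37.3% of all tested genes, with a median of 0.40 over the 31 genes and 0.10 over all. Leaving out both freshly isolated replicate 1 and proliferating replicate 1 gave 22 higher and 5 lower, 6 higher and 15 lower, and 15 higher and 11 lower in the same order of comparisons. All 31 genes passed the filter on low values. Of all tested genes, 37.7% were higher and 36.3% lower without overlap between libraries in proliferating against freshly isolated cells. These shares were 37.3% and 33.5% in myotubes against proliferating cells, and 40.7% and 38% in myotubes against freshly isolated cells. Lack of overlap in single genes below is to be read against them.

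The 17 sterol enzymes and the 9 fatty acid enzymes showed different counts. Of the sterol enzymes, 13 were higher and 1 lower in proliferating cells than in freshly isolated ones (median log2 change 1.76), and 13 were higher and 2 lower in myotubes than in freshly isolated cells (median 1.70). Between myotubes and proliferating cells, 2 sterol enzymes were higher, 3 were lower and 12 were not called (median -0.12). That count depends on the fit. With only the libraries of these stages fitted, Dhcr7, Fdft1 and Sc5d were also called higher, and Idi1 and Msmo1 lower. Of the fatty acid enzymes, 6 were higher and 2 lower in proliferating cells than in freshly isolated ones (median 0.39). In myotubes, 2 were higher and 5 lower than in proliferating cells (median -0.92), and 2 were higher and 6 lower than in freshly isolated cells (median -0.69). By mean level, 6 of the 31 genes peaked in freshly isolated cells, 16 in proliferating cells and 9 in myotubes, whereas 41.2, 24.7 and 34.2% of all tested genes did so. The lowest mean lay in freshly isolated cells for 18 of the 31, in proliferating cells for 4 and in myotubes for 9, against 41, 26.2 and 32.8% of all tested genes.

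**Figure D1:**
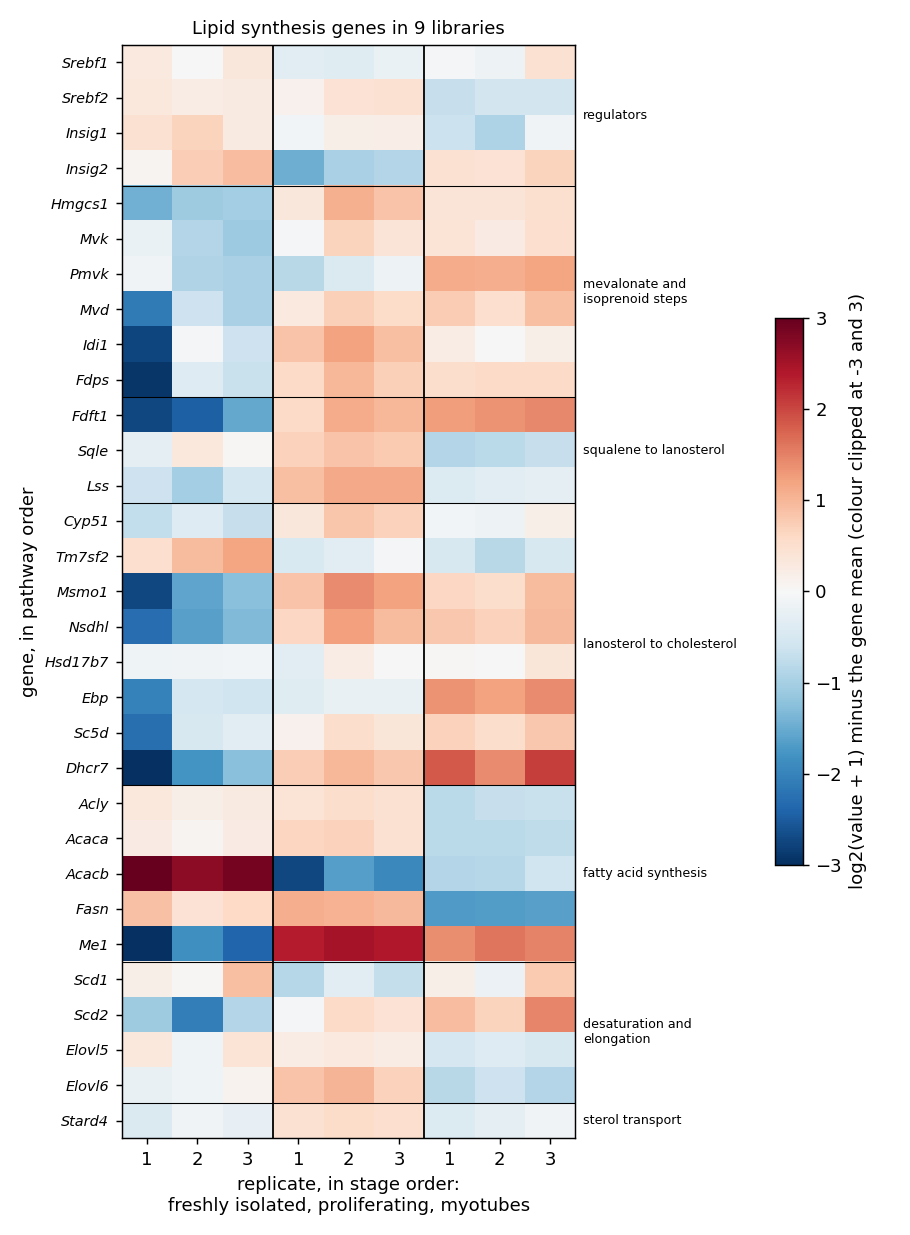
Level of each of the 31 genes (rows, in pathway order) in each of the 9 libraries (columns, replicates 1 to 3 of each stage), as log2(value + 1) minus the mean of the gene over all libraries. The mevalonate rows and most rows down to Dhcr7 are blue in freshly isolated cells, Fasn, Acaca and Acly are blue in myotubes, and Acacb and Insig2 are blue in proliferating cells.

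Among the regulators, neither Srebf gene was called higher in proliferating cells than in freshly isolated ones at the deposited scaling. Srebf2, at chr15:82147181-82205379 on GRCm38, encodes SREBP-2, the main regulator of the sterol enzymes. Its values were 5569, 5161 and 5367 units in freshly isolated cells, 4857, 5956 and 6055 in proliferating cells, and 2733, 3029 and 3023 in myotubes, in replicate order. The first and second of these stages overlapped, and every myotube library lay below every other library. Against freshly isolated cells, proliferating cells differed by 0.06 on the log2 scale (limma adjusted p = 0.597). With all libraries set to equal totals, which gave all tested genes a median change of 0.35 in place of 0.07, that difference was 0.36 (adjusted p = 0.0244). Against proliferating cells, myotubes were 1.91-fold lower (log2 change -0.94 ± 0.10, SE, limma adjusted p = 2.96e-05). Srebf1, at chr11:60199089-60222581, encodes SREBP-1a and SREBP-1c from separate starts, which gene-level counts do not separate. It read 1410, 1159 and 1454 units in freshly isolated cells, 907, 890 and 998 in proliferating cells and 1126, 1035 and 1581 in myotubes. The proliferating libraries were the lowest of all, and the other stages overlapped. The change in proliferating cells was -0.52 ± 0.16 (limma adjusted p = 0.0126). At equal totals its adjusted p was 0.25. Between myotubes and proliferating cells, Srebf1 did not pass the test (0.40 ± 0.16, limma adjusted p = 0.0552), although it passed without freshly isolated replicate 1 (adjusted p = 0.0347).

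The INSIG genes moved apart. Insig1, itself a target of SREBP, encodes the INSIG form whose transcript rises when sterol is low, and Insig2 encodes a partner with the same retention role. Insig1, at chr5:28071363-28078662, read 939, 1087 and 835 units in freshly isolated cells, 650, 772 and 791 in proliferating cells, and 441, 365 and 641 in myotubes. Its 3 stages did not overlap, and its means of 954 ± 127, 738 ± 76.5 and 482 ± 143 units (SD, n = 3 each) stepped down in stage order. The difference between myotubes and freshly isolated cells was -1.01 on the log2 scale (limma adjusted p = 0.000744). The difference between myotubes and proliferating cells was -0.65 ± 0.19 (adjusted p = 0.0171), and it missed the threshold when any of 4 libraries was left out, with adjusted p values of 0.0544 to 0.0665. The libraries were myotube replicates 1 and 2 and proliferating replicates 2 and 3. Between proliferating and freshly isolated cells, Insig1 did not pass (-0.37 ± 0.19, limma adjusted p = 0.112). Insig2, at chr1:121304353-121332589, read 978, 1561 and 1769 units in freshly isolated cells, 337, 475 and 503 in proliferating cells, and 1276, 1245 and 1472 in myotubes. Every proliferating library was below every library of the other stages. Insig2 was 3.22-fold lower in proliferating cells than in freshly isolated ones (log2 change -1.69 ± 0.22, limma adjusted p = 5.55e-05) and 3.07-fold higher in myotubes than in proliferating cells (1.62 ± 0.22, adjusted p = 0.000147). The log2 ratio of Insig1 to Insig2 averaged -0.55 ± 0.51 in freshly isolated cells, 0.77 ± 0.16 in proliferating cells and -1.50 ± 0.29 in myotubes (SD, n = 3 each). No pair of stages overlapped in that ratio. The exact two-sided permutation test gave p = 0.1 for each pair, the smallest p that 3 libraries against 3 allow, and 0.115 after Benjamini-Hochberg adjustment over 15 ratio tests.

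Of the 6 mevalonate and isoprenoid enzymes, 5 were higher in proliferating cells than in freshly isolated ones and none was lower. In myotubes, 5 were higher than in freshly isolated cells, and 1 was higher than in proliferating cells. The shares of all tested genes called higher were 37.6%, 40.2% and 28.6% in these comparisons in turn. Hmgcs1, at chr13:119690379-119708260, encodes the cytosolic HMG-CoA synthase, which acts early in the route. Its values were 444, 583 and 597 units in freshly isolated cells, 1540, 2525 and 2189 in proliferating cells and 1584, 1592 and 1702 in myotubes. Every cultured library exceeded every freshly isolated one, and the 2 cultured stages overlapped. Hmgcs1 was 3.80-fold higher in proliferating cells than in freshly isolated ones (log2 change 1.93 ± 0.18, limma adjusted p = 4.19e-06) and 3.03-fold higher in myotubes than in freshly isolated cells (adjusted p = 1.42e-05). Myotubes and proliferating cells differed in Hmgcs1 by -0.33 (limma adjusted p = 0.144), and by -0.53 without proliferating replicate 1 (adjusted p = 0.0137). A noncoding gene antisense to Hmgcs1, Gm48342, covers 12.1% of its exon bases.

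The kinases and the decarboxylase that carry mevalonate to isopentenyl pyrophosphate had different profiles. Mvk, mevalonate kinase, averaged 94.7 ± 31.9 units in freshly isolated cells, 196 ± 47.1 in proliferating cells and 199 ± 17.8 in myotubes (SD, n = 3 each). It was higher in proliferating cells than in freshly isolated ones (log2 change 1.06 ± 0.26, limma adjusted p = 0.0041). Pmvk, phosphomevalonate kinase, read 187, 108 and 103 units in freshly isolated cells, 113, 148 and 180 in proliferating cells and 441, 434 and 459 in myotubes. In the fit of all 9 libraries it was the only mevalonate enzyme of the list called between myotubes and proliferating cells, 3.06-fold higher in myotubes (adjusted p = 0.000335), with no overlap. Its difference between proliferating and freshly isolated cells was 0.18 (limma adjusted p = 0.538). Leaving out freshly isolated replicate 1 gave 0.45 (adjusted p = 0.0453). Mvd, mevalonate diphosphate decarboxylase, averaged 72 ± 34.0, 226 ± 33.2 and 259 ± 34.2 units in stage order. Its change in proliferating against freshly isolated cells was 1.76 ± 0.34 (limma adjusted p = 0.000896).

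Idi1, the isomerase that makes dimethylallyl pyrophosphate, and Fdps, farnesyl pyrophosphate synthase, were low in freshly isolated replicate 1. Idi1 read 17, 117 and 78 units in freshly isolated cells, 219, 281 and 226 in proliferating cells and 141, 122 and 137 in myotubes. Fdps read 7, 45 and 37 units in freshly isolated cells, 88, 119 and 98 in proliferating cells and 85, 89 and 89 in myotubes. For both genes every cultured library exceeded every freshly isolated one. The log2 change in proliferating against freshly isolated cells was 2.13 ± 0.55 for Idi1 (limma adjusted p = 0.00549) and 2.08 ± 0.56 for Fdps (adjusted p = 0.00647). Without freshly isolated replicate 1 these changes were 1.32 and 1.29. Myotubes were higher than freshly isolated cells in Fdps (1.88, limma adjusted p = 0.0103), by 1.08 without that library, and Idi1 was not called (1.28, adjusted p = 0.0553). Leaving out freshly isolated replicates 1, 2 and 3 in turn gave Idi1 changes of 0.47, 1.83 and 1.54, and it passed without replicate 2 (limma adjusted p = 0.00903) or replicate 3 (0.0494). Between myotubes and proliferating cells, Idi1 did not overlap and was lower in myotubes, but was not called (-0.85 ± 0.55, limma adjusted p = 0.223). It passed there without freshly isolated replicate 1 (adjusted p = 0.00164) and when only those 6 libraries were fitted (0.000449). Both genes have near-identical processed copies in the genome, and the copies that the table lists read at most 9 units in any library. Idi1 shares 684 bases at 100% identity with the processed copy Gm13502, and Fdps 1066 bases at 96.7% with the processed copy Gm5873. Fdps also shares 929 bases at 100% with Gm43738, a protein-coding gene that overlaps Fdps itself. Reads from such stretches could have been lost in counting, so the levels of both genes may be too low, which was not tested. Gm43738 shares 26.7% of the exon bases of Fdps on the same strand and read at most 3 units.

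Upstream sequences of 3 sterol genes that were higher in both cultured stages than in freshly isolated cells, and of Fasn, which was lowest in myotubes, are shown to set their regulatory letters side by side. Each is the 250 bases before an annotated start, read 5′ to 3′ on the strand of the gene, from RefSeq on GRCm38.p6. Windows for 25 of the 31 genes were found there, and Fdft1, Fdps, Scd1, Scd2, Sqle and Stard4 had none. Capitals mark TCACNCCAC, letters of a sterol regulatory element, and CCAAT, letters bound by NF-Y, on either strand (CCAAT reads ATTGG on the other). Hmgcs1 was shown because it alone held TCACNCCAC, and the other 3 genes were chosen after their values were seen. Hmgcs1 lies at chr13:119690101-119690350 on the plus strand, Msmo1 at chr8:64733579-64733828 on the minus strand, Nsdhl at chrX:72918271-72918520 on the plus strand, and Fasn at chr11:120824548-120824797 on the minus strand.
Hmgcs1: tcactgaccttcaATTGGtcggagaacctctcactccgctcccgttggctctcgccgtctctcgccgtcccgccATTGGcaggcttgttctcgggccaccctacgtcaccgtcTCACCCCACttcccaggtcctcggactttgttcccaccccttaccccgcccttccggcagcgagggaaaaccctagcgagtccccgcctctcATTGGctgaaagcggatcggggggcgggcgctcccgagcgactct
Msmo1: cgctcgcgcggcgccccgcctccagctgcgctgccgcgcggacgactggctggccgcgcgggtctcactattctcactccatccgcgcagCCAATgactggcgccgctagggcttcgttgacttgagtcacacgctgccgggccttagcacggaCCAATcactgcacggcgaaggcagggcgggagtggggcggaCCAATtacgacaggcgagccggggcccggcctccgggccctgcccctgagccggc
Nsdhl: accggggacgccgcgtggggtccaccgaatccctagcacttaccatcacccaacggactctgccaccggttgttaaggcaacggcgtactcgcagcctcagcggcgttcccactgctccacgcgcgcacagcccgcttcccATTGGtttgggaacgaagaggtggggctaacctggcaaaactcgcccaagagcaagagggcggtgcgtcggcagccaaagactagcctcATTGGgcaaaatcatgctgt
Fasn: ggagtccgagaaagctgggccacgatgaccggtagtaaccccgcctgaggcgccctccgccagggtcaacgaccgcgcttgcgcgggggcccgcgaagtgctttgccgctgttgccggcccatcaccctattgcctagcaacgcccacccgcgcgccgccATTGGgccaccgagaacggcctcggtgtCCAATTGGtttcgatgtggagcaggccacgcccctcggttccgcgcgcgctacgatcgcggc
Hmgcs1 held TCACCCCAC 137 bases before the start. TCACNCCAC was in the windows of 1 of the 25 genes (4%), against 1.22% of 27025 genes with windows. CCAAT was in 22 of the 25 (88%), against 37.5% of all genes. GGGCGG, letters bound by Sp1, was in 19 of the 25 (76%), against 35.4% of all genes. CACGTG, an E-box, was in 5 of the 25 (20%), namely Dhcr7, Elovl5, Hsd17b7, Insig1 and Sc5d, against 6.86% of all genes. Each motif was searched on both strands, a gene with several annotated starts counted if any window held it, and the overlapping CCAATTGG of Fasn holds CCAAT on both strands. These matches describe letters and not binding.

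All 3 enzymes from farnesyl pyrophosphate to lanosterol were higher in proliferating cells than in freshly isolated ones, as were 37.6% of all tested genes, and in myotubes they went different ways. Fdft1, at chr14:63145150-63179578, encodes squalene synthase, the first enzyme committed to sterols. It read 92, 111 and 211 units in freshly isolated cells, 910, 1329 and 1220 in proliferating cells, and 1474, 1569 and 1672 in myotubes. The stages did not overlap and stepped up in order. Fdft1 was 8.75-fold higher in proliferating cells than in freshly isolated ones (log2 change 3.13 ± 0.27, limma adjusted p = 2.42e-06) and 12.1-fold higher in myotubes than in freshly isolated cells (adjusted p = 7.05e-07). Myotubes and proliferating cells differed by 0.46 in Fdft1 (limma adjusted p = 0.171), and the adjusted p was 0.0109 when only those 6 libraries were fitted. A processed copy of Fdft1, Gm6781, read at most 15 units. Ctsb overlaps 18.3% of the exon bases of Fdft1 on the opposite strand, and whether counting used strand is not stated in the sources at hand.

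Sqle, squalene epoxidase, and Lss, lanosterol synthase, were highest in proliferating cells. Sqle read 577, 877 and 723 units in freshly isolated cells, 1146, 1284 and 1214 in proliferating cells, and 382, 399 and 433 in myotubes. Lss read 214, 162 and 227 units in freshly isolated cells, 620, 721 and 722 in proliferating cells, and 250, 265 and 274 in myotubes. In both genes no proliferating library overlapped with another stage. Myotubes were 3.00-fold lower than proliferating cells in Sqle (log2 change -1.58 ± 0.15, limma adjusted p = 1.13e-05) and 2.60-fold lower in Lss (-1.38 ± 0.15, adjusted p = 3.39e-05). Set against freshly isolated cells, myotubes were lower in Sqle (-0.82, adjusted p = 0.000426) and slightly higher in Lss (0.40, adjusted p = 0.0326). The Lss call was lost without freshly isolated replicate 2 (limma adjusted p = 0.104) and without any of the myotube replicates (adjusted p = 0.0538 to 0.0898).

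Of the 8 enzymes from lanosterol to cholesterol, 5 were higher in proliferating cells than in freshly isolated ones and 1 was lower, and in myotubes 6 were higher and 1 lower than in freshly isolated cells. Of all tested genes, 37.6% were higher and 35.7% lower in the first of these comparisons, and 40.2% and 37.3% in the second. Msmo1, the methylsterol monooxygenase that starts removal of the methyl groups at carbon 4, and Nsdhl, the dehydrogenase of the same demethylation, had like profiles. Msmo1 read 59, 133 and 168 units in freshly isolated cells, 728, 1075 and 919 in proliferating cells and 615, 581 and 769 in myotubes. Nsdhl read 37, 59 and 73 units in freshly isolated cells, 285, 440 and 361 in proliferating cells and 326, 299 and 364 in myotubes. All cultured libraries lay above all freshly isolated ones in both genes, and the cultured stages overlapped. Set against freshly isolated cells, proliferating cells were 8.10-fold higher in Msmo1 (log2 change 3.02 ± 0.33, limma adjusted p = 1.50e-05) and 6.47-fold higher in Nsdhl (2.69 ± 0.26, adjusted p = 5.39e-06). Cyp51, lanosterol demethylase, averaged 613 ± 85.8 units in freshly isolated cells, 1437 ± 241 in proliferating cells and 919 ± 115 in myotubes (SD, n = 3 each). It was higher in proliferating cells than in freshly isolated ones (1.22 ± 0.15, limma adjusted p = 4.22e-05) and lower in myotubes than in proliferating cells (-0.64 ± 0.15, adjusted p = 0.00545).

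Ebp, Sc5d and Dhcr7, which act late in the route, had their highest means in myotubes. Ebp, the sterol isomerase also known as emopamil binding protein, read 105, 299 and 288 units in freshly isolated cells, 336, 369 and 370 in proliferating cells and 1109, 1003 and 1149 in myotubes. Every myotube library was above every other library. Myotubes were 3.03-fold higher than proliferating cells (log2 change 1.60 ± 0.33, limma adjusted p = 0.00218) and 5.19-fold higher than freshly isolated cells (adjusted p = 7.44e-05). Proliferating and freshly isolated cells differed in Ebp by 0.78 ± 0.33 (limma adjusted p = 0.0544). It passed without any 1 of the freshly isolated libraries, with 0.29 when replicate 1 was left out (adjusted p = 0.03). Dhcr7, at chr7:143823145-143848410, encodes the reductase that makes cholesterol from 7-dehydrocholesterol. It read 4, 40 and 58 units in freshly isolated cells, 234, 281 and 248 in proliferating cells and 506, 376 and 593 in myotubes. Its 3 stages did not overlap. The change in proliferating against freshly isolated cells was 3.47 ± 0.73 (limma adjusted p = 0.00155), 2.37 without freshly isolated replicate 1 and 4.15 without freshly isolated replicate 3. The change in myotubes against freshly isolated cells was 4.40 ± 0.73 (adjusted p = 0.000278), and 3.30 and 5.08 without the same libraries. Between myotubes and proliferating cells, Dhcr7 was not called (0.93 ± 0.73, limma adjusted p = 0.313), although without freshly isolated replicate 1 it was (adjusted p = 0.00139).

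Sc5d, the C-5 desaturase that acts just before Dhcr7, averaged 169 ± 94.2 units in freshly isolated cells, 375 ± 53.2 in proliferating cells and 474 ± 47.2 in myotubes (SD, n = 3 each). Its change in proliferating against freshly isolated cells was 1.36 ± 0.42 (limma adjusted p = 0.0136). Leaving out freshly isolated replicate 1 gave 0.74. In myotubes it was 1.70 (adjusted p = 0.0036), and 1.08 without that library. Hsd17b7, the ketosteroid reductase of the demethylation step, was not called in any comparison, with means of 508 ± 7.57, 540 ± 105 and 604 ± 88.4 units in stage order. Tm7sf2, a sterol C-14 reductase, was the exception among the enzymes of this stretch. It read 92, 127 and 148 units in freshly isolated cells, 47, 51 and 63 in proliferating cells and 46, 36 and 46 in myotubes. All cultured libraries were below all freshly isolated ones. Tm7sf2 was 2.23-fold lower in proliferating cells than in freshly isolated ones (log2 change -1.16 ± 0.27, limma adjusted p = 0.00265). Vps51 shares 12.1% of the exon bases of Tm7sf2 on the same strand.

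**Figure D2:**
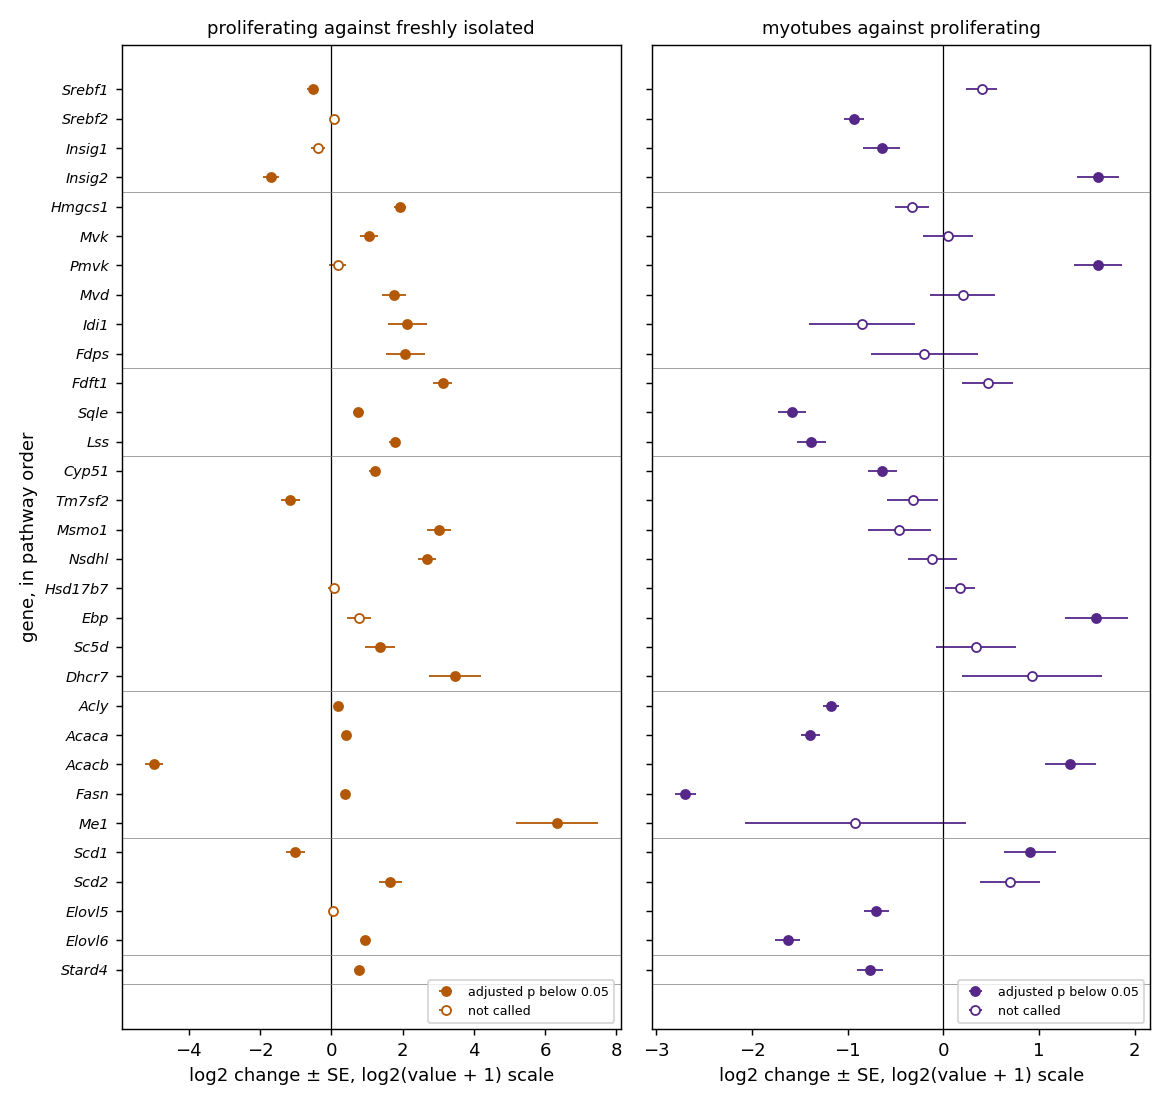
Log2 change with its standard error from limma for the 31 genes in proliferating against freshly isolated cells (left) and in myotubes against proliferating cells (right). Filled points passed the adjusted p of 0.05. On the left 13 of the 17 sterol enzymes lie right of 0 and are filled, and on the right Fasn has the lowest point at -2.70.

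In the fatty acid branch, 4 of 5 synthesis genes were higher in proliferating cells than in freshly isolated ones and 1, Acacb, was lower. Myotubes had 3 lower and 1 higher than proliferating cells, and 4 lower and 1 higher than freshly isolated cells. Of all tested genes, 37.6% were higher and 35.7% lower in proliferating against freshly isolated cells. In myotubes, 25.5% were lower and 28.6% higher than in proliferating cells, and 37.3% lower and 40.2% higher than in freshly isolated cells. Fasn, at chr11:120805846-120824547, encodes fatty acid synthase, which builds palmitate from malonyl-CoA. It read 8179, 5990 and 6762 units in freshly isolated cells, 9459, 9075 and 8638 in proliferating cells, and 1358, 1386 and 1430 in myotubes. The myotube libraries were far below all others and close to each other. Myotubes were 6.50-fold lower than proliferating cells (log2 change -2.70 ± 0.11, limma adjusted p = 2.30e-07) and 4.97-fold lower than freshly isolated cells (adjusted p = 2.99e-08). Proliferating cells were higher than freshly isolated cells by 0.39 ± 0.11 (limma adjusted p = 0.00902).

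Acly, ATP citrate lyase, supplies cytosolic acetyl-CoA to both routes. It averaged 2859 ± 136 units in freshly isolated cells, 3285 ± 146 in proliferating cells and 1451 ± 72.3 in myotubes (SD, n = 3 each). Myotubes were 2.26-fold lower than proliferating cells (log2 change -1.18 ± 0.08, limma adjusted p = 2.40e-06). The call between proliferating and freshly isolated cells (0.20 ± 0.08, limma adjusted p = 0.0451) was lost when any of 7 libraries was left out, with adjusted p values of 0.053 to 0.143. The libraries whose absence kept it were freshly isolated replicate 1 and proliferating replicate 1. Me1, at chr9:86581371-86695953, encodes cytosolic malic enzyme, a source of NADPH for fatty acid synthesis. It read 0, 50 and 34 units in freshly isolated cells, 937, 1023 and 962 in proliferating cells and 479, 550 and 513 in myotubes. Its 3 stages did not overlap. A count of 0 reads in freshly isolated replicate 1 allows up to 6.55 units (3 reads, counting error only). The log2 change in proliferating against freshly isolated cells was 6.33 ± 1.16 (limma adjusted p = 0.000599). It was 4.53, 7.36 and 7.09 without freshly isolated replicates 1, 2 and 3, and 5.47 with a pseudocount of 5 in place of 1. Myotubes and proliferating cells did not differ at the threshold (-0.92 ± 1.16, limma adjusted p = 0.531), and the adjusted p was 0.000156 without freshly isolated replicate 1.

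The acetyl-CoA carboxylases took opposite directions between proliferating and freshly isolated cells. Acaca, at chr11:84129672-84401651, encodes the cytosolic enzyme that makes malonyl-CoA for synthesis. Acacb, at chr5:114146535-114250761, encodes the form at the mitochondrial surface, whose malonyl-CoA restrains fatty acid import for oxidation. Acaca read 1155, 1042 and 1168 units in freshly isolated cells, 1529, 1587 and 1341 in proliferating cells and 556, 561 and 578 in myotubes. Acacb read 1628, 1251 and 1411 units in freshly isolated cells, 28, 61 and 50 in proliferating cells and 104, 106 and 128 in myotubes. Neither gene had overlapping stages. Acaca was higher in proliferating cells than in freshly isolated ones (log2 change 0.40 ± 0.10, limma adjusted p = 0.00341) and 2.62-fold lower in myotubes than in proliferating cells (adjusted p = 2.53e-06). Acacb was 31.6-fold lower in proliferating cells than in freshly isolated ones (-4.98 ± 0.26, limma adjusted p = 8.09e-08) and 2.51-fold higher in myotubes than in proliferating cells (adjusted p = 0.00169). Myotubes remained 12.6-fold lower in Acacb than freshly isolated cells (limma adjusted p = 5.49e-07). The log2 ratio of Acaca to Acacb averaged -0.34 ± 0.13 in freshly isolated cells, 5.04 ± 0.59 in proliferating cells and 2.32 ± 0.14 in myotubes (SD, n = 3 each), without overlap (exact permutation p = 0.1 for each pair of stages). The sums of adipocyte and fibro-adipogenic markers given above were also lower in both cultured stages than in freshly isolated cells. Their part in the fall of Acacb was not tested. Acaca shares 6118 bases at 99.2% identity with Gm5182, which has no values here. Reads of Acaca could have been lost in counting, which was not tested.

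The stearoyl-CoA desaturases, which put the first double bond into palmitate and stearate, changed places between freshly isolated and cultured cells. Scd1, at chr19:44394455-44407879, read 2898, 2610 and 4801 units in freshly isolated cells, 1412, 2016 and 1556 in proliferating cells and 2909, 2274 and 4387 in myotubes. Scd2, its neighbour at chr19:44293674-44306864, read 2238, 1104 and 2551 units in freshly isolated cells, 4524, 6949 and 6312 in proliferating cells, and 8808, 7394 and 12844 in myotubes. For Scd1 the proliferating libraries were the lowest and the other stages overlapped, and for Scd2 no stages overlapped. Scd1 was 2.02-fold lower in proliferating cells than in freshly isolated ones (log2 change -1.01 ± 0.27, limma adjusted p = 0.00677), with an adjusted p of 0.0501 at equal totals. Scd1 was 1.87-fold higher in myotubes than in proliferating cells (0.90 ± 0.27, limma adjusted p = 0.0174), a call lost without myotube replicate 3 (adjusted p = 0.0725), without proliferating replicate 1 (0.0649), without proliferating replicate 3 (0.0547), and at equal totals (0.0601). Scd2 was 3.16-fold higher in proliferating cells than in freshly isolated ones (1.66 ± 0.31, limma adjusted p = 0.000737) and 5.10-fold higher in myotubes than in freshly isolated cells (adjusted p = 5.38e-05). Between myotubes and proliferating cells, Scd2 was not called (0.69 ± 0.31, limma adjusted p = 0.0861), and it passed when only those 6 libraries were fitted (adjusted p = 0.0146).

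The log2 ratio of Scd1 to Scd2 gave this exchange within each library. It was 0.37, 1.24 and 0.91 in freshly isolated cells, -1.68, -1.79 and -2.02 in proliferating cells, and -1.60, -1.70 and -1.55 in myotubes. All freshly isolated libraries had more Scd1 than Scd2 units, and all cultured libraries had more Scd2 than Scd1. The mean log2 ratio differed by -2.67 between proliferating and freshly isolated cells and by -2.46 between myotubes and freshly isolated cells (exact permutation p = 0.1 each, adjusted 0.115). Myotubes and proliferating cells overlapped (difference 0.21, exact permutation p = 0.2). The transcripts of Scd1 and Scd2 share a stretch of 623 bases at 95.5% identity, so some reads of the pair could have been split or lost in counting.

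Both elongases among the 31 genes were lowest in myotubes. Elovl6, which lengthens palmitate to stearate, read 427, 457 and 538 units in freshly isolated cells, 902, 1009 and 811 in proliferating cells, and 281, 324 and 272 in myotubes. Its 3 stages did not overlap. Elovl6 was higher in proliferating cells than in freshly isolated ones (log2 change 0.94 ± 0.13, limma adjusted p = 0.000109) and 3.09-fold lower in myotubes than in proliferating cells (adjusted p = 6.05e-06). Elovl5, which lengthens polyunsaturated fatty acids, averaged 1100 ± 209 units in freshly isolated cells, 1130 ± 30.1 in proliferating cells and 695 ± 30.8 in myotubes (SD, n = 3 each). It was lower in myotubes than in proliferating cells (-0.70 ± 0.13, limma adjusted p = 0.00136), and proliferating and freshly isolated cells overlapped (0.06, adjusted p = 0.713). Stard4, a soluble protein that carries cholesterol between membranes, read 290, 370 and 335 units in freshly isolated cells, 547, 582 and 564 in proliferating cells and 297, 330 and 370 in myotubes. It was 1.71-fold higher in proliferating cells than in freshly isolated ones (0.77 ± 0.13, limma adjusted p = 0.000395), lower by a like amount in myotubes than in proliferating cells (-0.77 ± 0.13, adjusted p = 0.000704), and the outer stages overlapped.

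**Figure D3:**
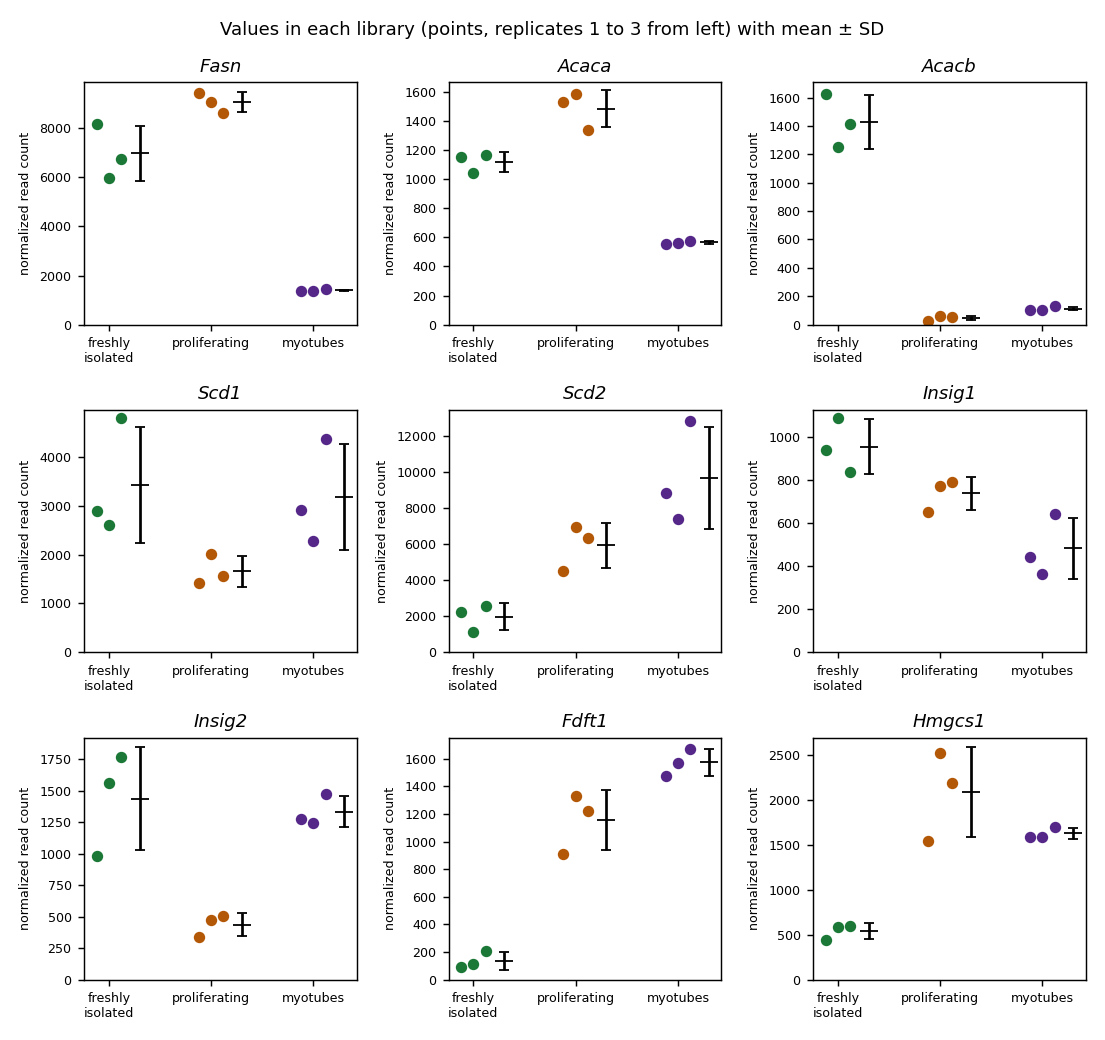
Normalized read counts of 9 genes in each library (points, replicates 1 to 3 from the left) with the mean and SD of each stage (bars, n = 3), on axes that start at 0. Fasn and Acaca are lowest in myotubes, Acacb is high in freshly isolated cells alone, Scd2 and Fdft1 step up through the stages, and Insig2 dips in proliferating cells while Insig1 steps down.

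Levels of different genes were compared per kilobase of exon, as normalized read counts per kilobase. The length was that of all annotated exons of a gene joined, which can exceed the transcript in use and so lower the value. In freshly isolated cells the highest mean levels were those of Srebf2 (746.9 ± 28.4 units per kilobase, SD, n = 3), Scd1 (702 ± 243), Fasn (637 ± 101) and Acly (542 ± 25.7). Their order was within the spread of Scd1 and Fasn. In proliferating cells Scd2 led with 1085 ± 230 units per kilobase, before Fasn at 827 ± 37.5, Srebf2 at 783 ± 92.6 and Acly at 622 ± 27.7, and the intervals of Fasn and Srebf2 overlapped. In myotubes Scd2 stood at 1772 ± 518 units per kilobase, followed by Scd1 at 652 ± 222, Ebp at 471 ± 32.7 and Srebf2 at 408 ± 23.6. Fasn was not among the 4 highest levels there. The lowest mean levels in freshly isolated cells were those of Dhcr7 (5.85 ± 4.73 units per kilobase), Fdps (7.05 ± 4.76) and Me1 (7.28 ± 6.64), whose order lay within their spread. Fdps and Me1 have near-identical copies, and Dhcr7 shares short stretches with other genes, such as 226 bases at 98.2% identity with Gm47486. Reads lost in counting could lower the levels of all 3 genes, which was not tested. Acacb was lowest in proliferating cells (4.81 ± 1.74 units per kilobase), and in myotubes Tm7sf2 (9.69 ± 1.31) and Acacb (11.7 ± 1.38) were lowest and within their spread.

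Libraries of the same stage differed across much of the set. Proliferating replicate 1 was below both other proliferating libraries in 27 of the 31 genes and in all 17 sterol enzymes, whereas 35.3% of all tested genes were lowest in it. That library also held the lowest sum of myotube markers of its stage. Myotube replicate 3 was above both other myotube libraries in 24 of the 31 genes and in 14 of the 17 sterol enzymes, against 36.2% of all tested genes. Freshly isolated replicate 1 was below both others in 18 of the 31 and in 14 of the 17 sterol enzymes, against 41.9% of all tested genes. The median deviation of the sterol enzymes from the mean of their stage, on the log2 scale, was -0.49, 0.22 and 0.30 in freshly isolated replicates 1 to 3, -0.23, 0.22 and 0.04 in proliferating replicates, and -0.01, -0.13 and 0.11 in myotube replicates. All tested genes had median deviations within 0.02 of 0. The part of depth and of the stage of maturation of a library in these differences was not tested.

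**Figure D4:**
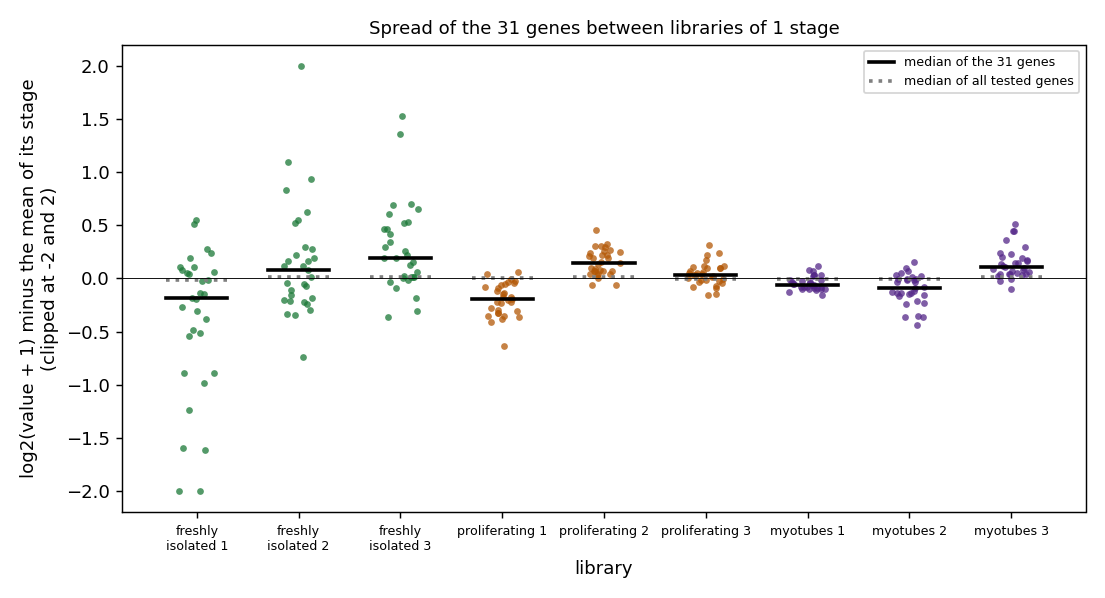
Deviation of each of the 31 genes (points) from the mean of its stage in each library, on the log2(value + 1) scale, clipped at -2 and 2. Thick bars are medians of the 31 genes and dotted bars medians of all tested genes. The median sits at -0.19 in freshly isolated replicate 1 and in proliferating replicate 1, and the dotted bars lie near 0 in every library.

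Other genes of the same routes were read from lists chosen with earlier results of these data known. Their counts are to be read against the shares of all tested genes, which were 37.6% higher and 35.7% lower in proliferating against freshly isolated cells, 28.6% and 25.5% in myotubes against proliferating cells, and 40.2% and 37.3% in myotubes against freshly isolated cells. Of 5 further sterol synthesis genes, 3 were higher and 2 lower in proliferating cells than in freshly isolated ones, and 3 were lower and none higher in myotubes than in proliferating cells (median log2 changes 0.79 and -0.53). The count of 2 lower was 1 when any of 7 libraries was left out, all except proliferating replicate 3 and freshly isolated replicate 2. The weaker of these calls was that of Idi2, a relative of Idi1, which averaged 8.33 ± 6.66 units in proliferating cells and 24.3 ± 17.2 in freshly isolated cells (limma adjusted p = 0.0473). Lbr, the lamin B receptor, which like Tm7sf2 is a sterol C-14 reductase, averaged 1279 ± 97.3, 2306 ± 155 and 887 ± 55.8 units in stage order. It was thus higher in proliferating cells than in freshly isolated ones (0.85, limma adjusted p = 1.88e-05), where Tm7sf2 was lower.

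Of 10 genes of SREBP processing and sterol-regulated degradation, 7 were higher and none lower in proliferating cells than in freshly isolated ones, and 2 were higher and 5 lower in myotubes than in proliferating cells (medians 0.46 and -0.27). Scap, the escort of SREBP, averaged 298 ± 8.72 units in myotubes and 953 ± 44.6 in proliferating cells (SD, n = 3 each; log2 change -1.67, limma adjusted p = 1.05e-06). Mbtps2, the site-2 protease that releases SREBP, averaged 658 ± 43.8 units in proliferating and 234 ± 81.0 in freshly isolated cells (log2 change 1.55, adjusted p = 9.17e-05). Erlin2, of an endoplasmic reticulum complex in sterol-regulated degradation, averaged 254 ± 38.1, 549 ± 75.9 and 1166 ± 23.6 units in stage order and was called higher in each comparison. Of 7 genes of isoprenoid branches, 5 were higher and none lower in proliferating cells than in freshly isolated ones, led by Nus1, a subunit of the dolichol-making prenyltransferase (log2 change 1.68, limma adjusted p = 6.13e-07). All 7 were higher in myotubes than in freshly isolated cells.

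Of 16 tested genes of sterol uptake, storage and efflux, 7 were higher (43.8%) and 9 lower (56.2%) in proliferating cells than in freshly isolated ones, with a median of -0.75. Abca1 and Apoe, efflux genes that oxysterol-activated LXR induces, were lower in proliferating cells. Abca1, the cholesterol exporter, read 3987, 2287 and 2899 units in freshly isolated cells, 3, 12 and 6 in proliferating cells, and 120, 66 and 130 in myotubes, without overlap. Its log2 change was -8.71 in proliferating against freshly isolated cells (limma adjusted p = 4.77e-08) and 3.84 in myotubes against proliferating cells (adjusted p = 3.64e-05). Apoe, a lipid carrier, averaged 79.3 ± 7.77 units in proliferating cells and 6825 ± 1052 in freshly isolated cells (log2 change -6.40, limma adjusted p = 6.58e-10). The summed fibro-adipogenic, endothelial and leukocyte markers were lower in the same stage, as given above, and their part in the low Abca1 and Apoe was not tested.

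Among 24 other tested genes of fatty acid synthesis and elongation, 13 were higher and 7 lower in proliferating cells than in freshly isolated ones, and 5 were higher and 9 lower in myotubes than in proliferating cells (medians 0.58 and -0.25). Mlxipl, which encodes the carbohydrate-responsive factor ChREBP, averaged 12 ± 3.61 units in proliferating cells and 983 ± 65.5 in freshly isolated cells (log2 change -6.28, limma adjusted p = 2.30e-08). Acss2, which makes acetyl-CoA from acetate, averaged 444 ± 98.6 units in myotubes and 65 ± 10.8 in proliferating cells (log2 change 2.74, adjusted p = 3.52e-06). Hacd1, a dehydratase of very long chain elongation, averaged 2553 ± 294 units in myotubes and 530 ± 81.9 in proliferating cells (log2 change 2.27, limma adjusted p = 3.19e-06). Of 18 genes of glycerolipid synthesis and lipid droplets, 7 were higher and 8 lower in proliferating cells than in freshly isolated ones, and 8 were higher and 4 lower in myotubes than in proliferating cells (medians -0.24 and 0.40). The shares in the first of these comparisons, 38.9% and 44.4%, were near those of all tested genes. Pnpla2, adipose triglyceride lipase, averaged 326 ± 10.2 units in proliferating cells and 3314 ± 580 in freshly isolated cells (log2 change -3.33, limma adjusted p = 4.21e-08). Acsl1, a fatty acid activating enzyme, averaged 2174 ± 183 units in myotubes and 353 ± 44.7 in proliferating cells (log2 change 2.62, adjusted p = 5.88e-07).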

How the data were processed

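RNA of satellite cells at 3 stages was measured in 9 libraries. Per the labels' protocols, RiboGone removed ribosomal RNA from 100 ng of total RNA before library preparation with a SMARTer Stranded kit. Per the submitters' processing notes, reads were aligned with STAR 2.4.0a to mm10 (GRCm38) and counted with featureCounts 1.4.5-p1. The strand setting of this step is not stated in the sources at hand, so overlapping and antisense genes are uncertain, as are near-identical copies. The deposited score values are read counts per gene that the authors normalized between libraries and rounded, and the tool for this is likewise not stated. The Q columns were assigned to freshly isolated cells by elimination, as the other prefixes name the cultured stages.

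Values were used as log2(value + 1) without further scaling. A gene needed 10 units or more in 3 or more libraries (17291 genes), and the stages were compared in 1 limma 3.58.1 model with a mean-variance trend over all 9 libraries (R 4.3.3), with Benjamini-Hochberg adjustment over all tested genes. The count test that had been foreseen was dropped for these scaled, rounded values. The model was run on simulated data in which each gene had the same spread in all stages and few genes changed. That run does not check the calls made here, where many genes changed. Ratios of gene pairs were compared by exact two-sided permutation tests (scipy 1.17.1). Positions are from GENCODE vM21. Near-identical copies share at least 200 bases at 95% identity or more. The estimate of reads per library rests on the step between low values, and limits from 0 reads cover counting error only. The members and the lists were chosen with earlier results of these data known. All members are described, and of each other list up to 3 genes with the largest called change in a comparison could be named. Some genes that meet this rule are not reported here. Leaving out freshly isolated replicate 1 and proliferating replicate 1 together was an alternative added after seeing the data. Alternatives were other scalings, pseudocounts, filters, array weights, fits on 2 stages, a replicate block and leaving out each library.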

Additional observations from a re-analysis of the deposited data

How the results depend on the processing

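Most results kept their direction and their side of the threshold. Of the log2 changes of the 31 genes, 782 kept both under other scalings, pseudocounts, filters, weights and fits, 35 newly passed the threshold, 9 no longer passed and 11 changed sign. With 1 library left out, the same numbers were 790, 18, 18 and 11. None of the reversed changes was called as deposited. In proliferating against freshly isolated cells, 3 of the 31 genes were lower at equal totals (5 as deposited), where the median change of all tested genes was 0.35 in place of 0.07. In myotubes against proliferating cells, 8 were higher with array weights and 10 when only the 2 stages compared were fitted (5 in the fit of all 9 libraries), and 4 to 8 with 1 library left out. The highest count came without freshly isolated replicate 1. Over all tested genes, 3949 to 5883 were higher in that comparison with 1 library left out (4951 with all 9).

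The uncalled changes that reversed were small. In proliferating against freshly isolated cells, Elovl5 was -0.0026 with array weights and -0.11 to 0.17 with 1 library left out, and Hsd17b7 -0.064 to 0.22. In myotubes against proliferating cells, Hsd17b7 was -0.0013 and Mvk -0.12 at equal totals. With 1 library left out, Mvk was -0.14 to 0.22 and Nsdhl -0.28 to 0.035, and without both libraries that stood apart Mvk was -0.14. In myotubes against freshly isolated cells at equal totals, Insig2 was 0.059, Scd1 0.020 and Srebf1 0.0057. Stard4 there was -0.0044 with TMM scaling, -0.026 with median-of-ratios scaling, -0.11 with array weights and -0.089 without both libraries. With 1 library left out, Insig2 was -0.32 to 0.10, Scd1 -0.36 to 0.16, Stard4 -0.089 to 0.086, and the Elovl5 to Elovl6 ratio changed by -0.093 to 0.18. The cause of these shifts was not tested.

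Whether the replicate numbers pair libraries across stages is not known. Same-numbered libraries had correlations of -0.03 to 0.03 in their deviations from stage means, and differently numbered ones -0.06 to 0.06. With such similar ranges the correlations cannot decide it. With the replicate block, 20 genes were higher and 5 lower in proliferating against freshly isolated cells, 6 and 11 in myotubes against proliferating cells, and 16 and 10 in myotubes against freshly isolated cells. Freshly isolated replicate 1 held few reads of Me1, Dhcr7, Fdps and Idi1, which limits the precision of their changes.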
